A study of Zea mays with 18 samples.

Results

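The change in maize microRNA (miRNA) levels from the dividing to the expanding part of a leaf that grew under cold nights was examined. All miRNA rows of the authors' deposited table were included, and the authors' average signal in the elongation zone of chilled leaves was set against that in the meristem of chilled leaves. The table holds 228 miRNA rows from 28 families, and rows with the same value in all 6 group averages were counted once, which left 147 distinct profiles. No row was dropped for a low level.

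Seedlings of the maize hybrid ADA313 were grown in 16 h days at 25 °C under 15000 lux and 70% relative humidity, and leaf 4 was sampled. Chilled seedlings had 8 h nights at 4 °C and control seedlings had 8 h nights at 20 °C, and the other growth conditions listed were the same. Meristem, elongation zone and mature zone were taken from both, with 3 arrays for each of the 6 groups, called biological replicates in the titles. The labels give neither the length of the chilling nor the way a zone was cut, nor whether seedlings were pooled, and the arrays within a group may share a harvest.

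A miRNA is cut from a hairpin precursor as a duplex of a 5p and a 3p arm. One arm usually enters an ARGONAUTE protein and directs the cleavage or repression of matching mRNAs, while the other arm is mostly degraded. A grass leaf grows from its base, where cells divide in the meristem, are displaced into the elongation zone and then stop growing, so that position along the blade stands for developmental age. Several plant miRNA families are known from this gradient: miR396 restrains growth-regulating factors (GRFs) that keep cells dividing, miR319 acts on TCP factors that end division, miR166 limits the class III HD-ZIP polarity genes, and miR156 and miR172 set juvenile and adult phase through SPL and AP2-type factors.

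The values are average array signals in log2 units. A level under 2 was treated as background. Between 48 and 59 of the 147 profiles lay under that level in each of the 2 chilled zones, and the median level was 3.23 in the chilled meristem and 3.78 in the chilled elongation zone. Signals of different miRNAs come from different probes, so a higher signal of 1 miRNA than of another does not show that it is more abundant. Single-array values were not analysed here, and it cannot be said whether the arrays of both zones overlap. The error of each difference was worked back from the ANOVA p-value that the authors deposited, and each standard error (SE) refers to a difference between 2 averages of 3 arrays. The table holds miRNAs, so the zones were not checked against protein-coding markers of division or expansion. In such bulk samples fewer cells of a type and less RNA per cell cannot be told apart.

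Of the 147 profiles, 66 passed an adjusted p of 0.05 when both chilled zones were compared, which is 44.9%. The elongation zone was higher in 44 of them (29.9%) and lower in 22 (15%). The 5 largest rises were those of miR396c/d, miR156e-3p, miR399f-5p, miR167e-3p and miR408a/b-3p, and the 5 largest falls those of miR319a/b/c/d-3p, miR166n-5p, miR166k-5p, miR159a-5p and miR166j-5p. Differences over all profiles ran from -4.82 to 4.56, with a median of 0.13. The split of 44 higher and 22 lower rests on the scale of the arrays: it was 28 and 27 after quantile normalization of the averages and 24 and 64 after subtraction of each group's median. These scalings moved the difference of all profiles by a median of -0.17 and -0.55. The 64 lower calls include profiles under background in both zones, and for those a lower call does not show a fall. Among the calls, miR399b-3p and miR399c-5p turned below 0 under quantile normalization and miR167f-3p, miR169q-3p, miR399j-5p and miR2118c under median subtraction, and the other 60 kept their sign under both.

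**Figure D1:**
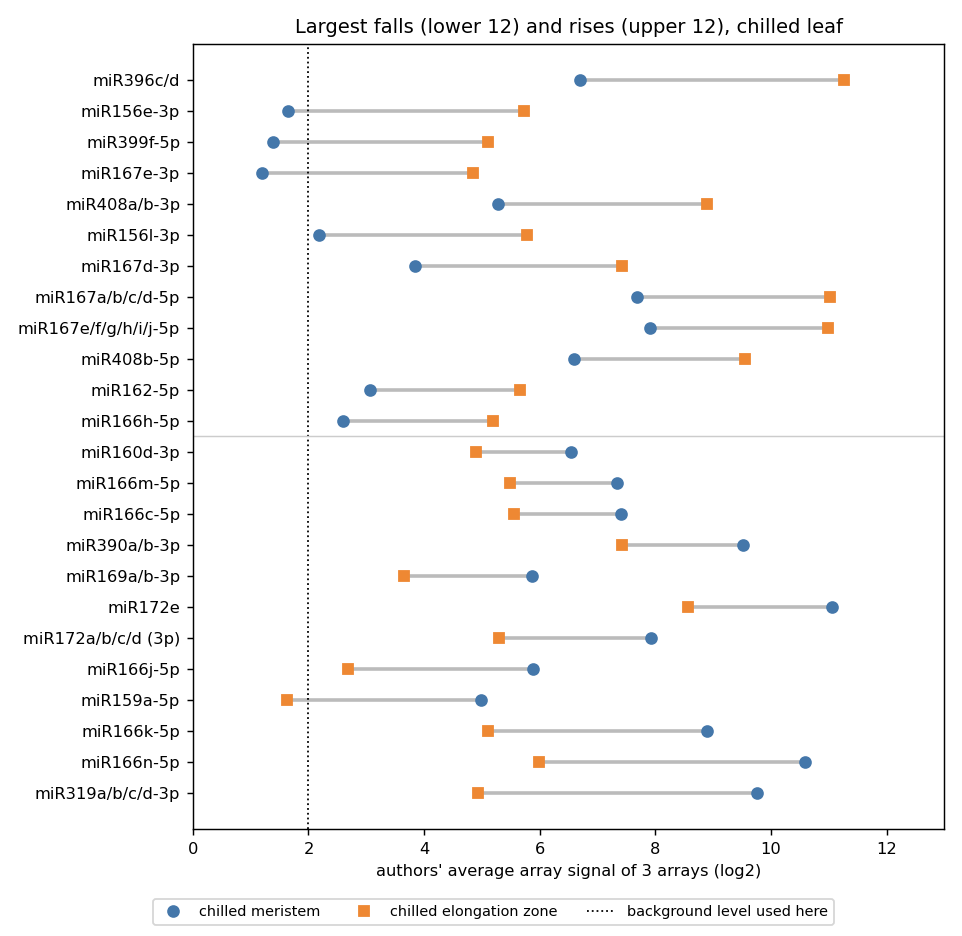
The authors' average signal (log2, x axis) of the 12 largest rises and the 12 largest falls past the threshold in chilled leaves, with a circle for the meristem and a square for the elongation zone (3 arrays each). The dotted line is the background level of 2; 3 of the 12 rises started under it and 1 of the 12 falls ended under it.

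The growth and polarity families gave the widest range of differences. Of their 30 profiles 6 rose, 14 fell and 10 did not pass, with a median difference of -0.66 beside 0.13 over all profiles, of which 29.9% were higher and 15% lower. Quantile normalization gave 4 higher and 15 lower, median subtraction 4 higher and 19 lower.

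The GRF regulator miR396 rose in its 5p profiles. The profile shared by miR396c and miR396d stood at 6.70 in the chilled meristem and 11.26 in the chilled elongation zone (difference 4.56, SE 0.59, adjusted p = 3.73e-05), a 23.6-fold difference of signal and the largest rise of all profiles. The other miR396 profiles of that arm started at background: miR396a/b-5p went from 1.31 to 2.94 (change of 1.63, SE 0.28, adjusted p = 0.000419), miR396g-5p with miR396h from 1.25 to 2.54 (change of 1.29, SE 0.13), and miR396e/f-5p from 1.0 to 1.57 (change of 0.57, SE 0.18), a call lost under both scalings (adjusted p = 0.113 and 0.925). No profile of the opposite arm passed as higher. The miR396g-3p level fell from 3.23 to 2.37 (change of -0.86, SE 0.29, adjusted p = 0.0243), which made miR396g the 1 gene of the table whose arms passed in opposite directions. The miR396e-3p level was 11.12 in the meristem and 10.51 in the elongation zone and did not pass. The miR396a/b-3p level was higher by value in the elongation zone, like its 5p arm, and did not pass (4.06 and 5.92, change of 1.86, SE 0.98).

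The TCP regulator miR319 showed the largest fall. The miR319a/b/c/d-3p profile dropped from 9.75 in the chilled meristem to 4.93 in the chilled elongation zone (change of -4.82, SE 0.73, adjusted p = 0.000126). Its relative miR159, which acts on GAMYB factors, was lower in the elongation zone in all 7 of its profiles, 5 of them past the threshold. The miR159c/d-3p profile fell little, from 12.65 to 12.01 (change of -0.64, SE 0.14, adjusted p = 0.00201), and miR159h/i-3p fell from 11.92 to 10.68 (change of -1.24, SE 0.25). A larger fall was seen for miR159a-5p, from 4.99 to background at 1.62 (change of -3.37, SE 0.92, adjusted p = 0.00774); its adjusted p was 0.0847 with the recovered SD enlarged by a factor of 1.5.

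In the miR166 family the calls came from the 5p arm. None of the 4 profiles of the 3p arm, which is the arm known to direct HD-ZIP III cleavage, passed under limma, and none of these 4 had an unadjusted p under 0.05. The profile of miR166b to miR166i stood at 10.20 and 10.10 (95% interval of the difference from -1.33 to 1.13), miR166a-3p at 10.37 and 10.45, miR166l/m-3p at 10.74 and 10.30, and miR166j/k/n-3p at 11.95 and 11.26 (-1.59 to 0.21). These intervals are wide, so a change of about 1 log2 unit in the 3p arms was not detectable with these arrays. With median subtraction miR166j/k/n-3p did pass as lower (-1.24, adjusted p = 0.0213).

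Of the 11 profiles of the 5p arm of miR166, 7 fell, 2 rose and 2 did not pass. The miR166n-5p level dropped from 10.59 to 5.99 (change of -4.60, SE 0.25, adjusted p = 8.22e-09), which is the smallest p of the comparison. Next came miR166k-5p, from 8.90 to 5.11 (change of -3.79, SE 0.32, adjusted p = 1.17e-06), and miR166j-5p, from 5.88 to 2.68 (change of -3.20, SE 0.58, adjusted p = 0.000553). These 3 genes share the miR166j/k/n-3p profile, whose difference was -0.69. Smaller falls were measured for miR166c-5p and miR166m-5p (-1.85 each), miR166b/d-5p (-1.41) and miR166a-5p (-1.35). Against this, miR166h-5p rose from 2.59 to 5.19 (change of 2.60, SE 0.36, adjusted p = 7.28e-05) and miR166i-5p from 1.46 to 2.22 (change of 0.76, SE 0.19), a call lost under both scalings (adjusted p = 1 with quantile normalization and 0.362 with median subtraction).

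**Figure D2:**
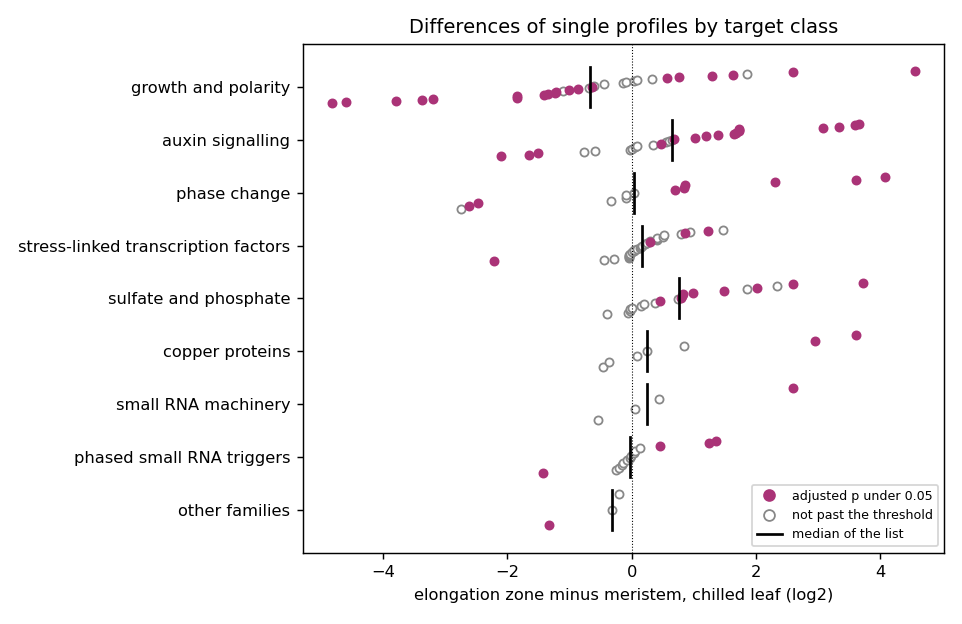
Difference between elongation zone and meristem of chilled leaves (log2, x axis) for each of the 147 profiles, grouped by the target class of the family (y axis). Filled points passed an adjusted p of 0.05, open points did not, and the bar is the median of the list: -0.66 in growth and polarity, 0.65 in auxin signalling and 0.76 in sulfate and phosphate.

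Auxin drives cell expansion in grass leaves, and miRNA families act on its response factors and receptors. Of the 27 auxin signalling profiles 14 rose, 3 fell and 10 did not pass, with a median difference of 0.65, beside 29.9% higher, 15% lower and a median of 0.13 over all profiles. Quantile normalization gave 11 higher and 3 lower, median subtraction 9 higher and 6 lower.

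The miR167 family, which acts on auxin response factors that activate transcription, rose in 7 of 8 profiles, miR167f-3p among them, which turned to -0.08 with median subtraction. Its guide profile miR167a/b/c/d-5p rose from 7.68 to 11.02 (change of 3.34, SE 0.52, adjusted p = 0.000158) and miR167e/f/g/h/i/j-5p from 7.91 to 10.98 (change of 3.07, SE 0.33, adjusted p = 8.69e-06). The 3p arms differed widely among themselves. Both miR167d-3p, from 3.84 to 7.43 (change of 3.59, SE 0.65, adjusted p = 0.000553), and miR167e-3p, from 1.19 to 4.84 (change of 3.65, SE 0.42, adjusted p = 1.37e-05), rose as much as the 5p arms. The remaining 3p profiles were at or near background in both zones: miR167g-3p rose by 1.01, miR167h/i-3p by 0.68 and miR167f-3p by 0.47, and miR167c-3p differed by 0.55 and did not pass. The calls of miR167g-3p and miR167h/i-3p were lost under quantile normalization (adjusted p = 0.122 and 0.244).

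The miR164 family, whose NAC targets act in organ boundaries and lateral growth, rose in all 4 profiles of its 5p guide arm under limma and in 0 of 4 of its 3p arm, of which 1, miR164e-3p, had an unadjusted p under 0.05. The miR164h-5p level went from 10.52 to 12.19 (change of 1.67, SE 0.41, adjusted p = 0.00375), and the other 3 rose by 1.65 to 1.73. Differences of the 3p arm ran from 0.01 to 0.34, at levels between 1.06 and 1.42. The miR393 family, which acts on the TIR1/AFB auxin receptors, rose in both 5p profiles, miR393b-5p by 1.73 (SE 0.55) and miR393a/c-5p by 1.38 (SE 0.47), and in neither 3p profile (0.60 and 0.65). With median subtraction both 5p calls were lost (adjusted p = 0.078 and 0.153).

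The falls of the auxin group lay in miR390 and miR160. The 5p arm of miR390, which guides the cleavage of TAS3 transcripts into small RNAs against auxin response factors, stood at 11.31 in the chilled meristem and 11.28 in the chilled elongation zone (-0.03, 95% interval from -0.48 to 0.42), and with median subtraction it passed as lower (-0.58, adjusted p = 0.0276). Its 3p arm fell from 9.52 to 7.42 (change of -2.10, SE 0.46, adjusted p = 0.00201). The miR160 family, which acts on repressing auxin response factors, was represented by 3p arms, the strand opposite to its guide. Of its 5 profiles miR160d-3p fell from 6.54 to 4.89 (change of -1.65, SE 0.33, adjusted p = 0.00103) and miR160b/g-3p from 8.48 to 6.98 (change of -1.50, SE 0.34), while miR160f-3p rose from 7.68 to 8.88 (change of 1.20, SE 0.23, adjusted p = 0.000787). The remaining miR160a-3p (-0.59) and miR160c-3p (-0.77) did not pass.

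The phase change families moved in opposite directions. Of 13 profiles 6 rose, all of miR156, 2 fell, both of miR172, and 5 did not pass. Their median difference was 0.03, beside 0.13 over all profiles, of which 29.9% were higher and 15% lower. Quantile normalization gave 5 higher and 2 lower, median subtraction 3 higher and 6 lower. The guide arm of miR156, which represses SPL factors, gave high signals: the profile shared by 10 members (miR156a to miR156i and miR156l) rose from 11.78 to 12.64 (change of 0.86, SE 0.19, adjusted p = 0.0022), a call lost with median subtraction (0.31, adjusted p = 0.181). Its 3p arms split. The miR156e-3p level rose from 1.65 to 5.73 (change of 4.08, SE 0.59, adjusted p = 8.44e-05), miR156l-3p from 2.18 to 5.78 (change of 3.60, SE 0.52, adjusted p = 8.68e-05) and miR156i-3p from 1.14 to 3.44 (change of 2.30, SE 0.25, adjusted p = 8.69e-06). By contrast, miR156h-3p and miR156j-3p stood at background in both zones, with a difference of -0.09 each.

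The miR172 guide arm, which represses AP2-type factors, fell. The miR172e level went from 11.05 to 8.57 (change of -2.48, SE 0.30, adjusted p = 2.12e-05), and the profile of miR172a to miR172d from 7.92 to 5.30 (change of -2.62, SE 0.59, adjusted p = 0.00252). The opposite arm, miR172c-5p, stood at 3.26 and 2.92 and did not pass. The miR529-5p level, of a family that shares SPL targets with miR156, was 5.27 and 2.52 and did not pass (change of -2.75, SE 1.14, adjusted p = 0.063).

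The stress-linked families come next. They are miR169, which acts on NF-YA factors, and miR171, which acts on GRAS factors of the HAIRY MERISTEM type. Of their 29 profiles 3 rose, 1 fell and 25 did not pass. The median was 0.16, beside 0.13 over all profiles, of which 29.9% were higher and 15% lower. After quantile normalization 3 of the 29 were higher and 3 lower, after median subtraction 1 and 11. The miR169a/b-3p profile fell from 5.86 to 3.65 (change of -2.21, SE 0.48, adjusted p = 0.00201), while miR169c-3p rose from 9.93 to 11.16 (change of 1.23, SE 0.24, adjusted p = 0.00107) and miR169l-5p from 5.42 to 6.28 (change of 0.86, SE 0.21), the last a call lost with median subtraction (adjusted p = 0.23). Only miR169l-5p of these is of the guide arm. The remaining rise, miR169q-3p, was at background in both zones (0.92 and 1.21). None of the 17 miR171 profiles passed by the limma test, an unadjusted p under 0.05 was reached by 2, and 2 were called lower with quantile normalization and 8 with median subtraction. Apart from miR171d/e/i/j-3p, those 8 lay under the background level in both zones. The miR171d/e/i/j-3p profile stood at 11.90 and 11.94, and the interval of its difference ran from -0.32 to 0.40; with median subtraction it was called as lower (-0.51, adjusted p = 0.0202).

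Of the 20 sulfate and phosphate profiles, 9 rose, 0 fell and 11 did not pass under limma. Their median was 0.76, beside 0.13 over all profiles, of which 29.9% were higher and 15% lower. At an unadjusted p under 0.05, 1 of the 20 was lower, miR399g-5p (-0.40). With quantile normalization 3 were higher and 1 lower, and with median subtraction 4 and 7, so the count depends on the scaling. The 7 lower calls of median subtraction lay under the background level in both zones and do not show a fall of these miRNAs. The miR395 family represses ATP sulfurylases and a sulfate transporter. Its 11 identical 3p members rose from 8.30 to 10.31 (change of 2.01, SE 0.35, adjusted p = 0.000419). The miR399 family represses the PHO2 regulator of phosphate uptake. Its miR399a/c/h-3p profile rose from 5.65 to 6.64 (change of 0.99, SE 0.21, adjusted p = 0.00201, and 0.0943 with median subtraction), and miR399f-5p rose from background at 1.38 to 5.10 (change of 3.72, SE 0.45, adjusted p = 1.99e-05), while the arm opposite to it, miR399f-3p, was at background in both zones (1.18 and 1.56).

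Both miR408 profiles, of a family that represses laccases and plantacyanins, rose: miR408a/b-3p from 5.28 to 8.89 (change of 3.61, SE 0.69, adjusted p = 0.000787) and miR408b-5p from 6.60 to 9.55 (change of 2.95, SE 0.44, adjusted p = 0.000106). The other 5 of the 7 copper protein profiles did not pass. Of these, miR528a/b-5p stood at 12.38 in the meristem and 11.91 in the elongation zone (change of -0.47, SE 0.19, adjusted p = 0.0603), and it passed as lower with quantile normalization (-0.81, adjusted p = 0.00343) and with median subtraction (-1.02, adjusted p = 0.000469). The median of the list was 0.24, beside 0.13 over all profiles, of which 29.9% were higher and 15% lower.

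Of the 4 profiles of the families that act on the miRNA machinery itself, miR162 on DCL1 and miR168 on AGO1, the miR162-5p level rose from 3.06 to 5.66 (change of 2.60, SE 0.80, adjusted p = 0.0167). This call was lost with quantile normalization (2.05, adjusted p = 0.0602) and with the SD enlarged by a factor of 1.5 (adjusted p = 0.135). Its guide arm miR162-3p was at 2.0 and 2.44, and miR168a-3p at 9.56 and 9.62. Among the 14 phased small RNA trigger profiles 3 rose, 1 fell and 10 did not pass, beside 29.9% higher and 15% lower over all profiles. Quantile normalization left 0 of the 14 higher and 1 lower, and median subtraction 0 higher and 11 lower. Apart from miR482-5p, those 11 lay under the background level in both zones and do not show a fall. The rises were miR2118c, at background in both zones (0.98 and 1.43), and the 5p arms of miR2275a and miR2275b, opposite to the guide. The miR2275 guide arm was at background and did not pass. The miR2275a-5p level went from 2.54 to 3.79 (change of 1.25, SE 0.38, adjusted p = 0.0162; 0.261 with quantile normalization and 0.136 with median subtraction), and miR482-5p fell from 2.88 to 1.45 (change of -1.43, SE 0.30, adjusted p = 0.00151). In the remaining families, miR394a/b-5p stood at 5.73 and 5.52 with an interval from -2.27 to 1.85, and miR1432-5p fell from 4.40 to 3.07 (change of -1.33, SE 0.47, adjusted p = 0.0323), a call lost with the enlarged SD (adjusted p = 0.19).

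Both arms were measured for 71 miRNA genes, which form 65 distinct pairs of profiles. By the limma test both arms rose in 12 pairs and fell in none. In 1 pair they passed in opposite directions, in 32 only 1 arm passed and in 20 neither did. Pairs can share a profile, as miR156e, miR156i and miR156l share their 5p profile. Under both scalings miR167d, miR167e and miR408b kept both rises, and each other pair in which both arms rose lost at least 1 call. With median subtraction both arms of miR390a/b passed as lower (-0.58 for the 5p and -2.65 for the 3p arm). So did both arms of miR166j, miR166k and miR166n. Where only 1 arm passed, the difference between the arms was not tested. The contrast is widest by value in miR166n, at -4.60 for the 5p and -0.69 for the 3p arm, and in miR399f, at 3.72 and 0.38. In miR408b (2.95 and 3.61) and miR167d (3.34 and 3.59) the arms had like values.

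**Figure D3:**
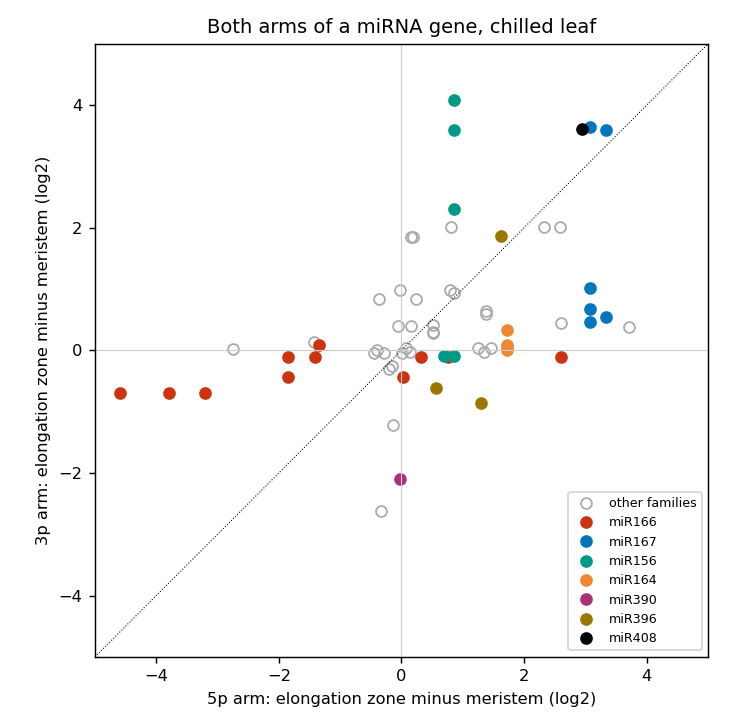
Difference between elongation zone and meristem of chilled leaves (log2) of the 5p arm (x axis) and the 3p arm (y axis) for the 65 distinct pairs of profiles, coloured by family; the dotted line marks equal values. Points of miR166 spread along the x axis from -4.60 to 2.60 while their 3p values stay between -0.69 and 0.08, and miR390 lies at -0.03 and -2.10.

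The same zone difference was then compared between chilled and control leaves, to ask whether cold nights altered the passage from division to elongation. In control leaves 52 profiles passed (35.4%), 35 higher and 17 lower. No array average is shared by the 2 zone differences, but both use the same residual variance of a profile, recovered over all 6 groups. A profile with a small error can therefore pass more easily in both. Across the 147 profiles the 2 zone differences had a Pearson's r of 0.896 and a Spearman's rho of 0.854. These are given as a description without a p, since the profiles share arrays and the authors' selection. Of the profiles past the threshold, 43 passed in both, none of them in opposite directions, 23 in chilled leaves and not in control leaves and 9 in control leaves and not in chilled leaves. Those counts do not show a difference between chilled and control leaves, which only the interaction tests.

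By the interaction test none of the 147 profiles passed under limma (0%), and the smallest adjusted p was 0.27. At an unadjusted p under 0.05 there were 16, of which 11 had a higher and 5 a lower value of the chilled minus the control difference. Of the other settings tried, median subtraction gave 5 profiles, all lower, and the rest gave 0. Those were miR396c/d, miR159c/d-3p, miR159f-5p, miR159e-5p and miR2118d. Both miR159e-5p and miR2118d lay under background in the 2 zones of control and chilled leaves, and miR159f-5p in all but the chilled meristem. The SE of the interaction had a median of 0.38, and its 95% interval lay within 1 log2 unit of 0 for 57 profiles and within 2 for 112. For the other 35 the interval reached beyond 2 log2 units on at least 1 side.

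**Figure D4:**
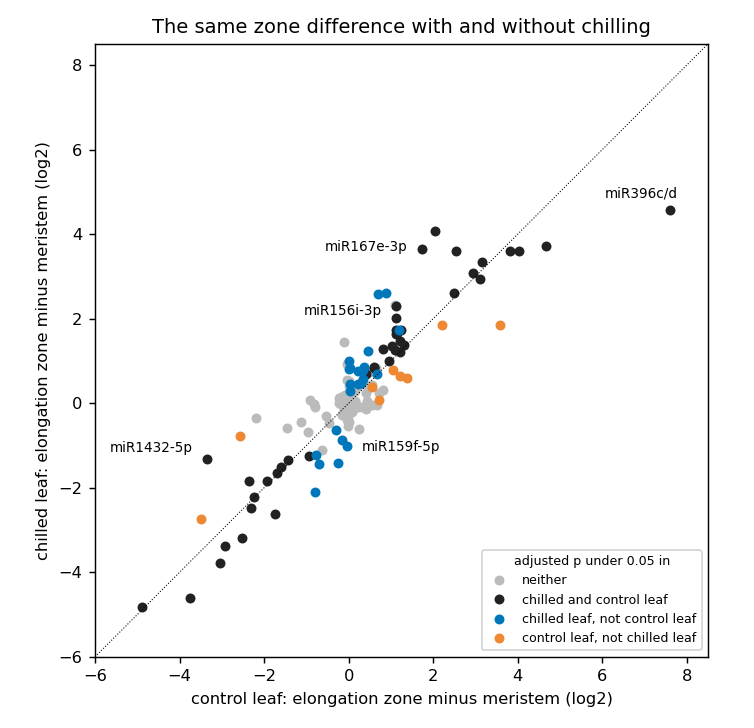
Difference between elongation zone and meristem (log2) in control leaves (x axis) and chilled leaves (y axis) for the 147 profiles; colours show in which leaves the adjusted p was under 0.05, and the dotted line marks equal values. The points follow the line (Pearson's r of 0.896), and miR396c/d lies farthest to the right, at 7.61 in control and 4.56 in chilled leaves.

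The 5 profiles with the smallest interaction p are given with their values, though none passed (adjusted p = 0.27 each). The miR396c/d profile had a smaller zone difference in chilled leaves: its elongation zone levels were 11.31 in control and 11.26 in chilled leaves, and its meristem levels were 3.70 and 6.70, so the zone difference was 7.61 and 4.56 (interaction -3.05, SE 0.84, 95% interval from -4.84 to -1.26). It passed with median subtraction (-3.49, adjusted p = 0.0394). For miR1432-5p the meristem again differed more than the elongation zone. Its meristem levels were 6.29 in control and 4.40 in chilled leaves, its elongation zone levels 2.94 and 3.07, and the interaction was 2.02 (SE 0.67, from 0.59 to 3.45).

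For the pair miR167e-3p and miR156i-3p the elongation zone levels differed by value. Their meristem levels lay under the background level in control and chilled leaves, where a difference could not be seen. The miR167e-3p level was 1.09 and 1.19 in the control and chilled meristem and 2.83 and 4.84 in the elongation zones (interaction 1.91, SE 0.59, from 0.64 to 3.18). The miR156i-3p level was 1.32 and 1.14 in the meristems and 2.44 and 3.44 in the elongation zones (change of 1.18, SE 0.35, from 0.42 to 1.94). The fifth, miR159f-5p, was under the background level in every zone but the chilled meristem, at 2.09 (interaction -0.97, SE 0.32), and its fall in chilled leaves (-1.01, adjusted p = 0.00232) was lost when levels under background were raised to it (-0.09).

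**Figure D5:**
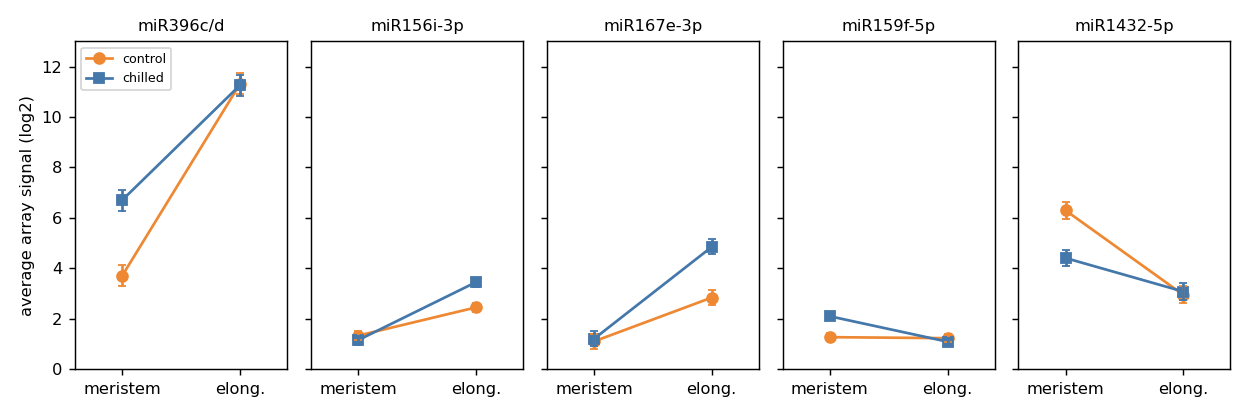
The authors' average signal (log2, y axis) in meristem and elongation zone of control (circles) and chilled leaves (squares) for the 5 profiles with the smallest interaction p; bars are the recovered SE of an average of 3 arrays. In miR396c/d the chilled and control lines meet in the elongation zone (11.26 and 11.31), and in miR167e-3p they part there (4.84 and 2.83).

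Among the other profiles with a large zone difference, the miR319a/b/c/d-3p difference was -4.82 in chilled and -4.88 in control leaves (interaction 0.06, 95% interval from -2.17 to 2.29). The miR167e/f/g/h/i/j-5p difference was 3.07 and 2.95 (from -0.89 to 1.13), and that of miR172e was -2.48 and -2.31 (from -1.09 to 0.75). For miR408a/b-3p, whose levels were higher by value in both chilled zones (5.28 and 8.89) than in the control zones (3.92 and 7.96), the zone differences were 3.61 and 4.04 (from -2.52 to 1.66). The miR390a/b-3p difference was -2.10 in chilled leaves and -0.79 in control leaves, where it did not pass, and the interval of the interaction ran from -2.69 to 0.07. The interval of the 11 identical miR395 3p members, at 2.01 and 1.11, ran from -0.17 to 1.97.

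Further along the chilled leaf, the levels of the miRNAs that had risen split by value in the mature zone. This step uses the same elongation zone arrays, so the values are given side by side and no overlap was counted. In the chilled mature zone miR396c/d was at 11.41, miR167e/f/g/h/i/j-5p at 11.54, miR408a/b-3p at 8.87 and the miR395 3p profile at 10.20, near or above their elongation zone levels. The 3p arms miR167d-3p, miR156e-3p and miR156l-3p were at 0.91, 2.20 and 1.99, against 7.43, 5.73 and 5.78 in the elongation zone. Profiles that had fallen also split by value. There miR319a/b/c/d-3p was at 1.59, miR166n-5p at 1.45 and miR172a to miR172d at 1.78, all under the background level, and miR172e was at 7.74. Near their elongation zone levels were miR159c/d-3p (12.01 in the elongation zone and 11.96 in the mature zone) and miR159h/i-3p (10.68 and 10.54).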

How the data were processed

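Total RNA was labelled with a FlashTag biotin kit, per the labels' protocols. The series is typed as high-throughput sequencing, while the biotin label, the array design IDs in the file headers and the software named are those of arrays, and the values were taken as array signal. The submitters' processing notes name Affymetrix Expression Console. The authors deposited 6 bi-weight averages in log2 units, 1 per group of 3 arrays, with the p-value of an ANOVA and its FDR-adjusted value, as the file headers state. For background correction, normalization between arrays and tool version the entry is: not given in the sources used here.

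As planned, the group averages were tested. Each ANOVA p-value was turned into F (5 and 12 degrees of freedom), and the variance of the averages, times 3, was divided by F to give the residual variance. This assumes an ordinary ANOVA with equal spread, with bi-weight averages standing in for means. Variances were moderated with squeezeVar (limma 3.58.1, R 4.3.3; prior degrees of freedom 1.776), differences were tested two-sided, and p-values were adjusted by Benjamini-Hochberg over 147 profiles at 0.05. The deposited rows reach an ANOVA p of 0.040982, so they were preselected on the averages tested here, and the adjusted p-values may understate the rate of false calls. The method was tested on simulated arrays with equal spread, plain means and an ordinary ANOVA, so that test cannot check these assumptions. P-values measure the spread between arrays, whose number limits the precision.

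Members, lists and tests were chosen with earlier results of these data known. Named were the 12 largest rises and 12 largest falls past the threshold with a level of 2 or more in either zone, the 5 smallest interaction p-values, the profile with the highest signal in each list (a rule for choosing, not a comparison of abundance) and the opposite arms. Other profiles, given to complete a family or a count, were chosen after their values were seen. Alternatives were moderation, SD, degrees of freedom, scaling, background, merging, a minimum difference and Holm adjustment. Of 157 miRNA genes named, 150 matched genes in RefSeq's Zm-B73-REFERENCE-NAM-5.0 annotation. No build is given for the table, and coordinates of that annotation were used only to find neighbouring genes. Sequences were not used here.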

Additional observations from a re-analysis of the deposited data

How the results depend on the processing

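The count of 66 profiles between the zones of chilled leaves lay between 49 and 88 under 8 of the 11 alternatives. It was 39 (22 higher, 17 lower) with the recovered SD enlarged by a factor of 1.5, 29 (18 higher, 11 lower) with Holm adjustment, and 118 rows (84 higher, 34 lower) of 228 when identical rows were not merged. Of the 66 calls, 28 passed under every alternative that gave them a value, 17 higher and 11 lower. Quantile normalization kept 50 of them and median subtraction 46. Raising levels under background to 2 kept 54, and 7 calls had both zones under background. The interaction count of 0 became 5, all lower, with median subtraction.

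Of the named profiles, sign changes were seen only under the scalings. With quantile normalization the difference was -0.09 for miR168a-3p, -0.20 for miR171d/e/i/j-3p, -0.09 for miR167c-3p and -0.35 for miR162-3p. With median subtraction it was -0.49 for miR168a-3p, -0.17 for miR399f-3p, -0.51 for miR171d/e/i/j-3p, -0.08 for miR167f-3p and -0.11 for miR162-3p. The cause was not tested. No paired analysis was possible because the table holds group averages, which carry no replicate number; for the same reason no replicate was left out in turn.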

Other observations

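Some miRNA genes of the table lie close together in the RefSeq annotation. Starts under 10000 bases apart on 1 chromosome were found for 31 pairs of genes, and all 31 joined members of the same family, most of them of miR395. Values of some of the neighbours are given as a description. The miR166k-5p and miR166m-5p levels both fell from the chilled meristem to the chilled elongation zone, by differences of -3.79 and -1.85. For miR2275a-5p and miR2275b-5p the differences were 1.25 and 1.35, and both rose, though neither passed with quantile normalization (adjusted p = 0.261 and 0.311) or median subtraction (0.136 and 0.061). The neighbours miR399f and miR399c had 5p arms with differences of 3.72 and 0.79, the second of which turned to -0.04 with quantile normalization. Not all neighbours moved alike: for miR396a and miR396e the 3p profiles miR396a/b-3p and miR396e-3p differed by 1.86 and -0.61, and neither passed.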
